A study of Mus musculus with 9 samples.

Results

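Integrins are cell surface receptors made of an alpha and a beta chain, and 6 of the 84 genes on a mouse wound healing PCR array encode chains whose receptors bind fibronectin, vitronectin or latent TGF beta: Itga4, Itga5, Itgav, Itgb3, Itgb5 and Itgb6. They were chosen by this ligand binding and not by a measured value, and all 6 were measured in every array. Colon RNA came from C57BL/6 female mice (strain C57bl6J in the labels) of 8 to 9 weeks. The untreated group (UN) had regular drinking water for 7 days, the DSS group had 3% dextran sodium sulphate in the water for 7 days, which injures the epithelium and causes acute colitis, and the DSS+DPG group had the same DSS and, by daily oral gavage, 8 mg/kg/day of dipotassium glycyrrhizate (DPG), a salt of glycyrrhizin from liquorice root. The sources used here do not say whether the UN and DSS mice were gavaged with vehicle. Each group is represented by a single pool of RNA from 5 mice, run on 3 arrays, so that every p-value measures the technical spread between arrays of 1 pool and none measures the spread between mice. The RNA was from colon tissue not separated into cell types, in which fewer cells of a type and less RNA per cell cannot be told apart.

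The chain of Itga5 pairs only with that of Itgb1, and this pair is the classical receptor of fibronectin. The chain of Itga4 also pairs with that of Itgb1, binds fibronectin and the endothelial ligand VCAM-1, and is carried mainly by leukocytes; its pair with the Itgb7 chain homes lymphocytes to the gut. The chain of Itgav pairs with those of Itgb1, Itgb3, Itgb5 and Itgb6. The receptors with Itgb3 and Itgb5 bind vitronectin and are found on endothelium, fibroblasts and other stromal cells, and the receptor with Itgb6 is made by epithelium, in particular when it is injured, where it frees active TGF beta from its latent form. An integrin reaches the cell surface only as a pair, so the level of 1 chain does not give that of the receptor.

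Windows of the 250 bases before the annotated start were read from RefSeq (GRCm38.p6) for 5 of the 6 chains, and 3 are shown. Itga4 and Itgav are the chains whose profiles over the arrays were most alike, and Itgb5 is the chain that went the other way in DSS. Itga4 lies on chr2:79255176-79255425, plus strand, Itgav on chr2:83724147-83724396, plus strand, and Itgb5 on chr16:33829415-33829664, plus strand. Capitals mark the GC box GGGCGG on either strand.
Itga4: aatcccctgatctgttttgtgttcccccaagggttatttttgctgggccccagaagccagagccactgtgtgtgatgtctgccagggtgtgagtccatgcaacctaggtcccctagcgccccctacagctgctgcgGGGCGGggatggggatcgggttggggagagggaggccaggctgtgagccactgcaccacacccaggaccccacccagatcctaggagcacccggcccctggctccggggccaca
Itgav: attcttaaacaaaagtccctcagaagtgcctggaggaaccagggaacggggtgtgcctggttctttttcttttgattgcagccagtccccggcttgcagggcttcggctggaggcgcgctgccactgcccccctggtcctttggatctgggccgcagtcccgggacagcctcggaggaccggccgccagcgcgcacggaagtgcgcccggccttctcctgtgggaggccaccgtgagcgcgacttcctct
Itgb5: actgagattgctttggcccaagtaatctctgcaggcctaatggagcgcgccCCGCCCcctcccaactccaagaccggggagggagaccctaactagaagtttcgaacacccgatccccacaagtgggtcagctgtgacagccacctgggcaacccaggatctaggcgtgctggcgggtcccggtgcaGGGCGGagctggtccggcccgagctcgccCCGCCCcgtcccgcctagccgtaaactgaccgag
The window of Itga4 held 1 GC box, that of Itgb5 held 3 and that of Itgav held none, whereas 32.7% of all 32851 windows of this length held at least 1. The GC content was 64%, 65.2% and 64.4% in the same order. Neither the AP-1 motif TGANTCA, found in 6.75% of all windows on either strand, nor TATAAA, found in 12.4% of them, was matched in the window of any of the 5 chains. The pair with the most similar profile was therefore not alike in this motif. A match of letters is not a binding site, and the arrays did not measure binding.

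The array gives a threshold cycle (Ct) for each gene, a log2 scale on which 1 cycle earlier is a doubling of template. The 6 chains were well within the measured range, at a Ct of 25.33 to 28.23 in the UN and DSS arrays and of 28.07 to 30.23 in the DSS+DPG arrays. Levels are given as delta Ct, for which the Ct of each gene was set against the average of the housekeeping genes Hsp90ab1, Gusb, Gapdh, B2m and Actb on its own array, so that a lower delta Ct is a higher level. This average was at cycle 22.00 for UN, 22.23 for DSS and 23.44 for the DSS+DPG pool, whereas the median of the 84 genes was at 27.87, 26.66 and 29.64. The 5 genes did not shift together: from UN to DSS the Ct of B2m, the light chain of MHC class I, fell by 1.10 cycles while that of Hsp90ab1, a chaperone, was 1.08 cycles later (exact permutation p = 0.1 for each, two-sided, the smallest that 3 arrays against 3 allow). Differences between groups are log2 differences of delta Ct, positive where the first group had more, from a limma fit of all 9 arrays. A gene passed the test at an adjusted p (Benjamini-Hochberg over the panel genes tested) under 0.05.

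In DSS against UN, 4 of the 6 chains were higher, Itgb5 was lower and Itgb3 did not pass the test. Itga4 and Itgav rose by 1.92-fold and 1.83-fold, Itgb6 by 1.37-fold and Itga5 by 1.15-fold, and Itgb5 was 1.17-fold lower. These directions are relative to the 5 housekeeping genes. Relative to the panel median all 6 chains were lower in DSS, as were 51 of the 84 genes, while 21 were higher. The directions of Itga5, Itgb3 and Itgb5 also turned under other references. Relative to the 5 housekeeping genes the panel itself leaned upwards, since 61.9% of its 84 genes passed as higher and 29.8% as lower. The median difference of the 6 chains was 0.33, and that of all 84 genes 0.71. In the DSS+DPG pool all 6 chains were lower than in the DSS pool, from 1.27-fold for Itgb5 to 2.87-fold for Itgav. But relative to the panel median all 6 were higher, as were 48 of the 84 genes, while 25 were lower. Relative to the 5 housekeeping genes 76.2% of the panel passed as lower. The median difference was -1.13 for the 6 chains and -1.30 for all genes. The chains thus fell along with most of the panel, by amounts that differed between them.

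Itga4, the leukocyte chain, had a delta Ct of 6.16, 6.24 and 6.16 in the UN arrays, of 5.19, 5.29 and 5.25 in the DSS arrays and of 6.61, 6.51 and 6.57 in the DSS+DPG arrays. The DSS pool was high and the DSS+DPG pool lowest, and no arrays of different groups overlapped, as was true for 63.1% of the panel genes upwards and 32.1% downwards in DSS against UN, for 76.2% downwards in DSS+DPG against DSS and for 67.9% downwards in DSS+DPG against UN. The difference was 0.94 ± 0.042 (SE, adjusted p = 1.11e-07, limma, n = 3 arrays per group) for DSS against UN and -1.32 ± 0.042 (adjusted p = 1.40e-08) for DSS+DPG against DSS. It was the largest rise of the 6 chains. Against UN the DSS+DPG pool was lower by 1.30-fold (adjusted p = 4.05e-05, limma), a call that was lost with Gapdh alone as reference (-0.05) and relative to the panel median (-0.048).

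Itgav, the alpha chain that all 3 beta chains of the set share, had a delta Ct of 4.03, 4.01 and 3.99 in UN, of 3.11, 3.19 and 3.11 in DSS and of 4.65, 4.64 and 4.68 in DSS+DPG. The groups were apart by many times the spread within them and followed the order seen for Itga4. The difference was 0.87 ± 0.031 (SE, adjusted p = 3.54e-08, limma, n = 3) in DSS against UN. In DSS+DPG against DSS it was -1.52 ± 0.031 (adjusted p = 1.60e-09), the largest fall of the 6. The DSS+DPG pool was 1.57-fold below UN (adjusted p = 2.27e-07, limma).

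Itga5, the fibronectin receptor chain, had a delta Ct of 3.93, 4.01 and 3.96 in UN and of 3.77, 3.75 and 3.79 in DSS. In the DSS+DPG arrays it was 5.29, 5.07 and 5.24. The UN and DSS pools lay close together, without overlap, and the DSS+DPG pool lay far below both. The difference was 0.20 ± 0.057 (SE, adjusted p = 0.0113, limma, n = 3) in DSS against UN, and it did not pass without Gapdh in the reference (0.08) and turned without Hsp90ab1 (-0.016). For DSS+DPG against DSS it was -1.43 ± 0.057 (adjusted p = 5.19e-08), a fall of 2.70-fold. Itga5 was the chain that lay farthest below UN in the DSS+DPG pool, by 2.35-fold (adjusted p = 1.64e-07, limma).

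**Figure D1:**
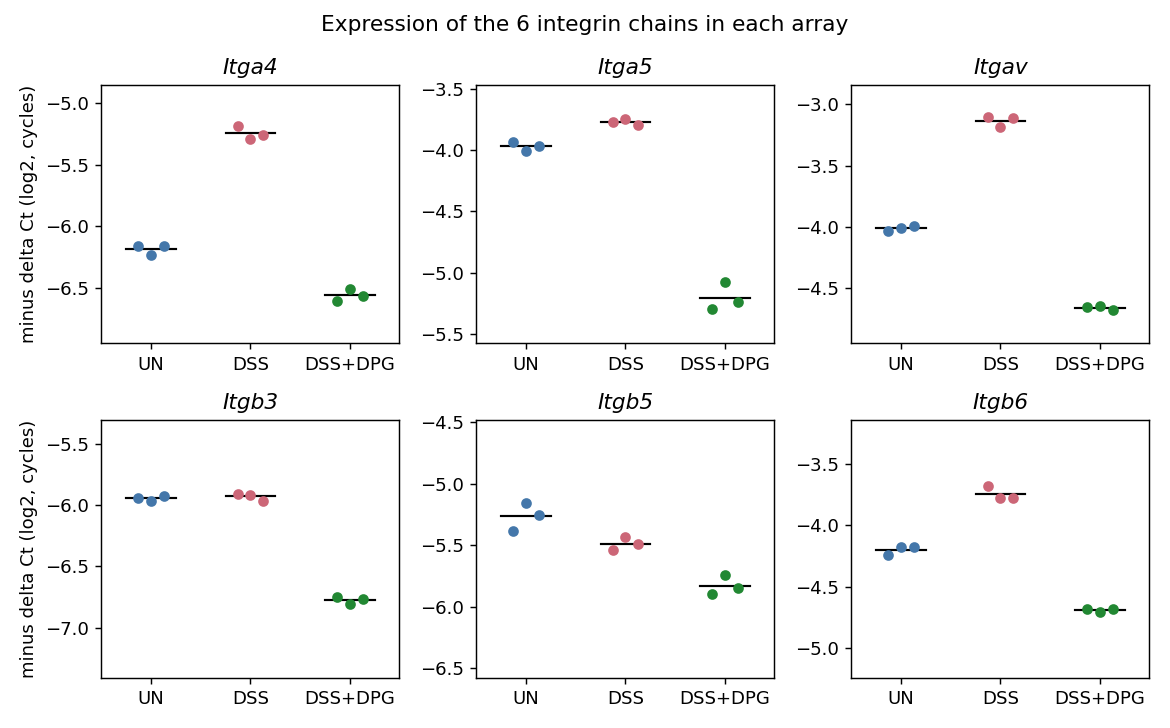
Minus delta Ct (log2, in cycles, higher is more RNA) of each of the 6 chains, with 1 point per array and a bar at the mean of the 3 arrays of each pool; every panel spans the same range around its own middle. Itga4, Itgav and Itgb6 were highest in DSS, Itgb3 was level in UN and DSS, Itgb5 was highest in UN, and all 6 were lowest in DSS+DPG relative to the 5 housekeeping genes.

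Itgb6, the epithelial chain of the receptor that frees TGF beta, had a delta Ct of 4.24, 4.18 and 4.17 in UN, of 3.68, 3.78 and 3.77 in DSS and of 4.68, 4.70 and 4.68 in DSS+DPG. Its order of groups was that of the alpha chains, with smaller steps. The difference was 0.45 ± 0.037 (SE, adjusted p = 7.38e-06, limma, n = 3) in DSS against UN and -0.94 ± 0.037 (adjusted p = 5.03e-08) in DSS+DPG against DSS. Against UN the DSS+DPG pool was 1.40-fold lower (adjusted p = 3.74e-06, limma).

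Itgb3, which also forms the platelet fibrinogen receptor with the Itga2b chain, had a delta Ct of 5.94, 5.97 and 5.92 in UN and of 5.91, 5.92 and 5.96 in DSS. In DSS+DPG it was 6.75, 6.80 and 6.77. The UN and DSS arrays overlapped, and the difference of 0.014 (95% interval -0.0545 to 0.0825, adjusted p = 0.662, limma, n = 3) did not pass the test, whereas without B2m in the reference it was 0.35 and passed, and without Hsp90ab1 it was -0.20 and passed. In DSS+DPG the level was 1.80-fold below DSS (difference -0.84 ± 0.029 SE, adjusted p = 2.26e-08). It was 1.78-fold below UN (adjusted p = 4.36e-08, limma).

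Itgb5, the second vitronectin receptor chain, had a delta Ct of 5.38, 5.16 and 5.25 in UN, of 5.54, 5.44 and 5.49 in DSS and of 5.90, 5.74 and 5.85 in DSS+DPG. Its level stepped down from UN through DSS to DSS+DPG, without overlap between neighbouring groups. The difference was -0.23 ± 0.067 (SE, adjusted p = 0.0126, limma, n = 3) in DSS against UN, and it turned to 0.11 without B2m in the reference. In DSS+DPG against DSS it was -0.34 ± 0.067 (adjusted p = 0.00149), the smallest fall of the 6, and -0.14 without Hsp90ab1 in the reference (adjusted p = 0.0836, limma). Against UN the DSS+DPG pool was 1.48-fold lower (adjusted p = 6.09e-05).

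All 6 chains were lower in DSS+DPG than in UN, and 69.5% of the 82 panel genes tested passed as lower. With Gapdh alone or the panel median as reference 5 chains were, without Itga4, and 47 of the 82 genes with either. The median difference was -0.61 for the chains and -0.69 for those 82 genes. Relative to the 5 housekeeping genes none of the 6 passed at 2-fold or more in DSS against UN. There 42.9% of the panel passed as higher and 8.33% as lower. Itga4, Itga5 and Itgav passed as lower in DSS+DPG against DSS (57.1% of the panel did), and Itga5 alone passed in DSS+DPG against UN (35.4% of the panel). At the 3.5-fold of the methods none of the 6 passed in any comparison, although 27.4% of the panel passed as higher and 2.38% as lower in DSS against UN, 34.5% as lower in DSS+DPG against DSS and 17.1% as lower in DSS+DPG against UN. The 6 chains spanned 1.17 log2 units in DSS against UN and 1.18 in DSS+DPG against DSS. Relative to the 5 housekeeping genes the chains were thus a group of moderate changes on a panel with larger ones.

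**Figure D2:**
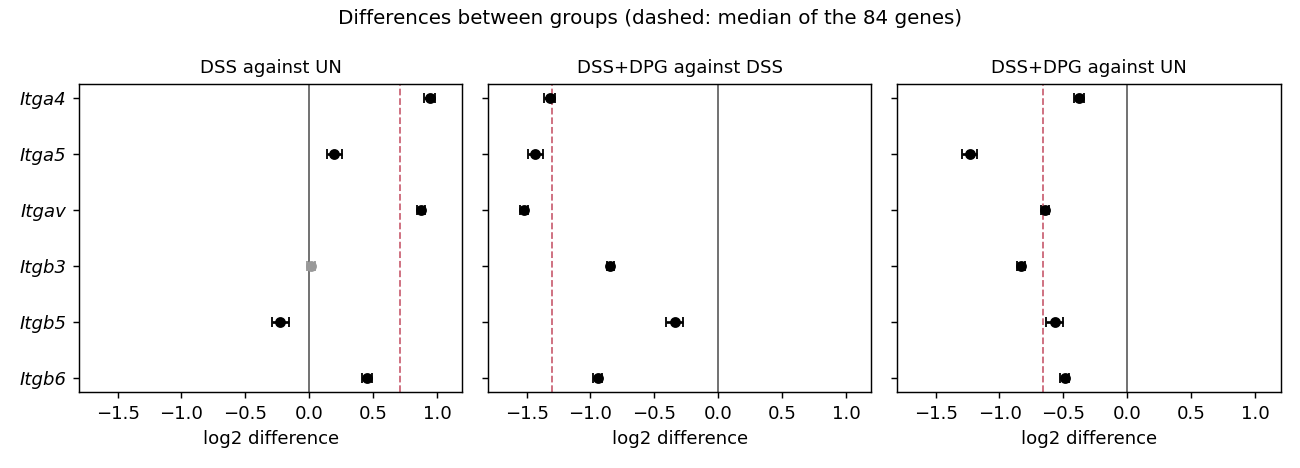
Log2 difference of each chain in the 3 comparisons relative to the 5 housekeeping genes, with bars for the standard error of the limma fit, black points for those that passed the test and grey for the one that did not; the dashed line is the median of the 84 genes. Itga4 and Itgav lie above the panel median in DSS against UN and the other 4 below it, and in DSS+DPG against DSS Itgb5 lies nearest to 0.

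The difference in Ct of 2 genes in the same array needs no housekeeping gene. Taken this way, 5 of the 6 chains moved by another amount than their partner chain in at least 1 of the comparisons with DSS, and Itga5 passed the test in neither of them. The beta chains fell behind Itgav in DSS and drew nearer to it again in DSS+DPG, as did many panel genes: relative to Itgav 49.4% of 83 genes were lower in DSS than in UN and 49.4% were higher in DSS+DPG than in DSS, and 82.7% of 81 differed between DSS+DPG and UN. The Ct of Itgav minus that of Itgb5, which is their log2 ratio up to a constant for each assay, was -1.35, -1.15 and -1.26 in UN, -2.43, -2.25 and -2.38 in DSS and -1.25, -1.10 and -1.17 in DSS+DPG. The DSS arrays stood apart and the other two groups overlapped. The ratio of Itgb5 to Itgav changed by -1.10 ± 0.070 (SE, adjusted p = 1.26e-06, limma over 83 genes, n = 3), or 2.14-fold, in DSS, and by 1.18 (adjusted p = 1.02e-06), or 2.27-fold, from DSS to DSS+DPG. Between DSS+DPG and UN the change was 0.08 (95% interval -0.084 to 0.24, adjusted p = 0.304).

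For Itgb3 the Ct of Itgav minus its own was -1.91, -1.96 and -1.93 in UN, -2.80, -2.73 and -2.85 in DSS and -2.10, -2.16 and -2.09 in DSS+DPG. Here the ratio to Itgav changed by -0.86 in DSS (adjusted p = 1.48e-07, limma) and by 0.68 from DSS to DSS+DPG (adjusted p = 9.75e-07). It stayed 0.18 below UN in the DSS+DPG pool (difference -0.18, adjusted p = 0.00269). For Itgb6 the values were -0.21, -0.17 and -0.18 in UN, -0.57, -0.59 and -0.66 in DSS and -0.03, -0.06 and 0 in DSS+DPG. Its ratio changed by -0.42 (adjusted p = 6.82e-06, limma) and then by 0.58 (adjusted p = 1.02e-06), which left it 0.16 above UN (adjusted p = 0.00293). The 3 beta chains thus shared a direction against Itgav in each comparison with DSS, and the sizes ran from Itgb6 through Itgb3 to Itgb5.

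Itgb1, the common partner of the alpha chains, was itself 0.25 higher in DSS than in UN (adjusted p = 0.000198, limma) and 1.26 lower in DSS+DPG than in DSS (difference -1.26, adjusted p = 5.67e-09). Relative to Itgb1 57.8% of 83 genes were higher in DSS than in UN, 47% fell from DSS to DSS+DPG and 87.7% of 81 differed between DSS+DPG and UN. The ratio of Itga5 to Itgb1 changed by -0.053 (95% interval -0.24 to 0.13, adjusted p = 0.528, limma) in DSS and by -0.17 (95% interval -0.36 to 0.012, adjusted p = 0.0699) in DSS+DPG against DSS. Its arrays read -2.65, -2.75 and -2.73 in UN, -2.78, -2.70 and -2.81 in DSS and -3.07, -2.76 and -2.98 in DSS+DPG. The second DSS+DPG array lay with the DSS arrays, and without it the change from DSS was -0.26 (adjusted p = 0.00245). Against UN the DSS+DPG pool was at -0.23 (adjusted p = 0.0266), and leaving out array 1 or 3 of UN or of DSS+DPG gave adjusted p up to 0.0792.

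The ratio of Itga4 to Itgb1 read -4.88, -4.98 and -4.93 in UN, -4.20, -4.24 and -4.27 in DSS and -4.39, -4.20 and -4.31 in DSS+DPG. It rose by 0.69 in DSS (adjusted p = 5.09e-06, limma), and the DSS+DPG arrays overlapped with those of DSS (difference -0.063, 95% interval -0.19 to 0.064, adjusted p = 0.299), while without the second DSS+DPG array the difference was -0.11 (adjusted p = 0.0475). Relative to its partner Itga4 was therefore 0.63 above UN in DSS+DPG (adjusted p = 9.71e-06), although it was below UN relative to the housekeeping genes. The ratio of Itgav to Itgb1 was -2.75, -2.75 and -2.76 in UN, -2.12, -2.14 and -2.13 in DSS and -2.43, -2.33 and -2.42 in DSS+DPG. It rose by 0.62 in DSS (adjusted p = 5.19e-07, limma) and was 0.26 lower in DSS+DPG than in DSS (difference -0.26, adjusted p = 0.000151), still 0.36 above UN (adjusted p = 2.17e-05).

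**Figure D3:**
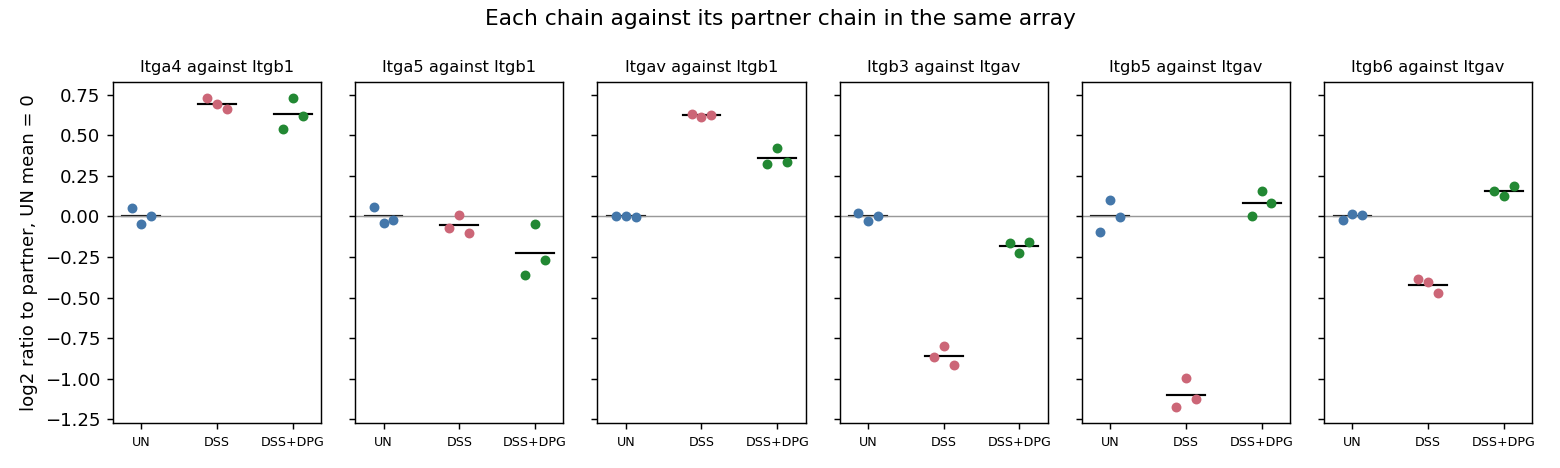
Log2 ratio of each chain to its partner chain in the same array, set to 0 at the UN mean, with 1 point per array and a line at the mean of the 3 arrays. The ratios of Itgb3, Itgb5 and Itgb6 to Itgav dip in DSS, by 1.10 for Itgb5, and return towards the UN level in DSS+DPG, whereas those of Itga4 and Itgav to Itgb1 are raised in both DSS pools.

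How far a chain was called higher or lower depended on the reference. Itga4, Itgav and Itgb6 were higher in DSS than in UN with any 1 of the 5 housekeeping genes left out, with Gapdh alone, with the mean of Itga3, Mif and Hsp90ab1 and in the raw Ct, and lower only relative to the panel median (-0.50, -0.57 and -0.99). The panel median moved by more than any chain, since it reached its cycle 1.21 earlier in DSS than in UN and 2.98 later in DSS+DPG than in DSS. In the raw Ct the chains were 1.55 (Itgb5) to 2.73 (Itgav) cycles later in DSS+DPG than in DSS, and the 5 housekeeping genes 0.39 (Hsp90ab1) to 1.71 (B2m) cycles later. Each chain except Itgb5 was thus delayed by more than every housekeeping gene. The averages that the authors deposited imply a reference made of Itga3, Mif and Hsp90ab1, of which Itga3 is itself an integrin chain. Relative to that mean Itgb3 was 0.40 higher in DSS than in UN and all 6 chains were lower in DSS+DPG than in DSS. The order of the 6 chains and the gaps between them are the same under every reference by construction. Each reference subtracts 1 value per array from every gene, so this sameness is not a finding.

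**Figure D4:**
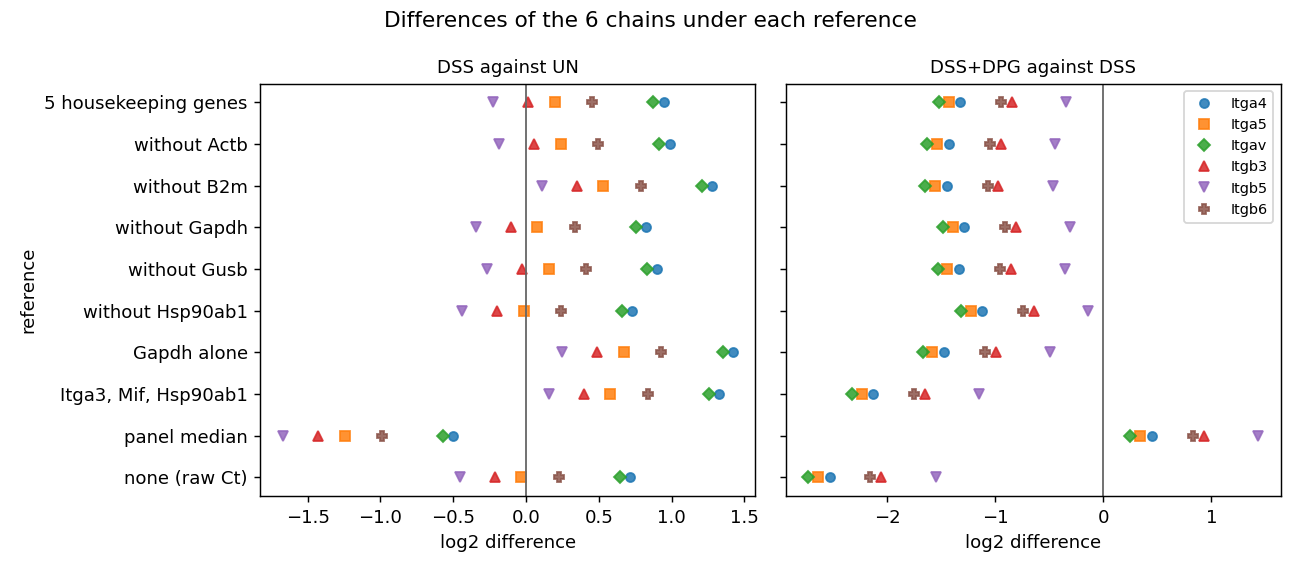
Log2 difference of the 6 chains in DSS against UN and in DSS+DPG against DSS under each reference, with 1 symbol per chain. By construction the 6 symbols shift as a block with the reference, so that Itgb5 lies at -0.23 with the 5 housekeeping genes and at 0.25 with Gapdh alone. Relative to the panel median both comparisons change sign for the block, except Itgb5 in DSS against UN, which stays below 0.

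The array holds 5 other integrin chains. Itga1 and Itga2 pair with Itgb1 as collagen receptors, and Itga3 and Itga6 form laminin receptors of epithelium. In DSS against UN 1 of the 5 was higher (Itgb1), 3 were lower and 1 did not pass, with a median of -0.18. Itga6 was at -0.73, Itga1 at -0.47 and Itga2 at -0.18, and Itga3 at 0.014 did not pass. All 4 alpha chains of this group were therefore below Itga4, Itga5 and Itgav in that comparison, a gap that does not depend on the reference, though without B2m in the reference their differences ran from -0.39 to 0.35 and the median of the 5 chains turned to 0.15. In DSS+DPG against DSS Itga1 fell by 0.73, Itga3 was 0.26 higher, and Itga2 (-0.094) and Itga6 (0.089) did not pass. The median of the 5 was -0.094 relative to the housekeeping genes, 0.11 without Hsp90ab1 among them and 1.68 relative to the panel median, against -1.13, -0.93 and 0.64 for the 6 fibronectin and vitronectin receptor chains.

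Of 4 ligands on the array, vitronectin itself (Vtn) was 6.37-fold higher in DSS than in UN (difference 2.67, adjusted p = 3.05e-10, limma) and fell 22.8-fold from DSS to DSS+DPG (difference -4.51, adjusted p = 2.29e-11). In some DSS arrays the deposited Ct of Vtn is earlier than that of the same well in the supplementary table of the study; the deposited values were used, and no integrin chain was affected. With the later Ct both changes of Vtn would be smaller, by an amount not given here. With the deposited values the fall of Vtn was larger than that of any of its receptor chains, the largest of which was 2.87-fold. Tgfb1, whose latent form the receptors with Itgav bind, was at 1.24 and -0.71 in the same comparisons. Fga, a fibrinogen chain, had no Ct within the limit of 38 cycles in any UN or DSS+DPG array, so that no difference of these pools from each other was measured and that of DSS+DPG from DSS is set by the limit. In DSS its Ct was 37.12, 34.95 and 36.89, at least 3.76-fold higher than in UN, and at least 2.39-fold without the second array. Ctgf, a matrix protein bound by integrins, did not pass in DSS (-0.77, adjusted p = 0.0569) and fell by 2.65 in DSS+DPG against DSS. In all 3 ligands were higher and none lower in DSS, and 3 (Vtn, Tgfb1 and Ctgf) fell from DSS to DSS+DPG. Relative to the panel median the counts were 1 higher and 2 lower in DSS, with Tgfb1 turned. From DSS to DSS+DPG they were 2 higher and 2 lower relative to that median. Those higher were Tgfb1, again turned, and Fga, whose count is set by the limit and is no measured rise. Fibronectin was not analysed here.

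Genes of signalling below integrins followed the chains only in part. Relative to the 5 housekeeping genes Rac1 stepped down from UN through DSS to DSS+DPG, as Itgb5 did. Rac1 and Rhoa, GTPases of the actin skeleton, were at -1.14 and -0.77 in DSS against UN, and the kinase Mapk3 was at -0.93, each lower under every reference tried. In DSS+DPG against DSS Mapk3 was 0.74 higher, Rac1 fell by 0.81 and Rhoa did not pass (-0.014), whereas in the raw Ct these genes were all lower and relative to the panel median all higher. Of 8 genes of the TGF beta pathway or known to be induced by it, 5 were higher and 2 lower in DSS (median 0.31), but 0 higher and 6 lower relative to the panel median (-1.14). All 8 were lower in DSS+DPG than in DSS (median -1.46), a count that fell to 3 lower and 4 higher relative to the panel median. Among them the coreceptor Tgfbr3 was at 1.31 and -2.27, the collagen Col3a1 at 1.48 and -3.55, and the contractile actin Acta2 at -1.49 and -0.40. For Col3a1, as for Vtn, the deposited DSS Ct is earlier than in the supplementary table.

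Markers of the cell types that could carry these chains moved with the groups, and their part in the results was not tested. All markers are genes of the panel and none is specific to 1 cell type. The summed level (2 to the power of minus delta Ct) of 4 neutrophil and macrophage markers (Il1b, F13a1, Mmp9 and Plaur) ranged from 0.0383 to 0.0395 in UN, from 0.686 to 0.697 in DSS and from 0.0563 to 0.0579 in DSS+DPG, and 4 of 4 were higher in DSS (3 of 4 relative to the panel median) and 4 of 4 lower in DSS+DPG than in DSS. The 4 lymphocyte markers (Cd40lg, Il2, Il4 and Ifng) summed to 0.000983 to 0.00115, 0.00862 to 0.00885 and 0.00513 to 0.00609. Both sums were highest in DSS, as Itga4 was, and stayed above UN in DSS+DPG. In DSS most of each sum came from 1 gene, Il1b (mean delta Ct 0.89) and Ifng (7.17). Single markers also differed: F13a1 (-0.90), Mmp9 (-0.61) and Il4 (-0.92) were below UN in DSS+DPG. Cd40lg was 1.55 higher in DSS+DPG than in DSS, but its mean Ct was late, at 33.76 and 34.09. In the raw Ct 0 lymphocyte markers passed as higher in that comparison. The 6 fibrillar and other collagens used for fibroblasts summed to 3.61 to 3.67, 8.62 to 9.24 and 0.999 to 1.04, most of it from Col3a1. Without Col3a1 the other 5 summed to 0.770 to 0.810, 0.879 to 0.942 and 0.340 to 0.344, the same order of groups, which Itgav also had, although Col14a1 was lower in DSS than in UN (-0.87). The 3 epithelial markers (Cdh1, Itga3 and Itga6) summed to 0.634 to 0.704, 0.345 to 0.360 and 0.422 to 0.428. Relative to the housekeeping genes Itgb6 was thus highest in the pool where they were lowest. With the mean of Itga3, Mif and Hsp90ab1 as reference all 3 were lower in DSS+DPG than in DSS (median -0.54). They were also all lower in the raw Ct (-0.95), and all higher relative to the panel median (2.03). The 3 smooth muscle markers (Acta2, Actc1 and Tagln) summed to 4.57 to 6.06, 2.44 to 2.55 and 1.39 to 1.44, which is the order of groups of Itgb5. Actc1 differed, at 1.10 higher in DSS+DPG than in DSS relative to the housekeeping genes. Its mean raw Ct was late and did not come earlier, at 33.35 in DSS+DPG and 33.24 in DSS. No list was absent from any pool.

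The panel genes closest to each chain were found from the raw Ct centred on each gene's mean, as the root mean square difference over the 9 arrays. The profile nearest to Itga4 was that of Il6st, the signalling chain of the interleukin-6 receptor, at 0.045 cycles, followed by Ctsk at 0.115 and Itgav at 0.120, where the median distance of the 83 other genes was 0.763. For Itgav they were Ctsk, the collagen-degrading cathepsin K, at 0.079, Itga4 at 0.120 and the growth factor Igf1 at 0.146. Itga5 lay nearest to its only partner, Itgb1, at 0.128, then to Egfr at 0.160 and Col5a1 at 0.181. Itgb6 lay nearest to Angpt1, a ligand of the endothelial Tie2 receptor, at 0.070, then to Il6st at 0.179 and Plau at 0.181. Itgb3 lay nearest to F3, the coagulation tissue factor, at 0.139, then to Itgb1 at 0.172 and Itgb6 at 0.191. Itgb5 lay nearest to Itga2 at 0.142, then to the adherens junction gene Ctnnb1 at 0.213 and to Itgb3 at 0.222. Among the 6 chains the closest pair was Itga4 and Itgav, and the farthest was Itgav and Itgb5 at 0.543, which form a receptor with each other. The 9 arrays share 3 pools and their input, so these distances describe 3 conditions.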

How the data were processed

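Expression of 84 genes was measured by real-time PCR array in colon RNA of 3 pools, each on 3 arrays. The authors deposited the raw Ct of every well, which is on a log2 scale and not normalized, and besides it group averages of Ct and delta Ct, fold changes, p-values and false discovery rates, which hold their own comparisons and were not used, except that average Ct and delta Ct were checked against the raw Ct. The average Ct matched within 0.0033 cycles, while the delta Ct implied a reference of Itga3, Mif and Hsp90ab1 rather than the 5 housekeeping genes named in the methods. No version of the array software was found in the sources used here.

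A Ct that was absent or above 38 was set to 38. Delta Ct is Ct minus the arithmetic mean of Hsp90ab1, Gusb, Gapdh, B2m and Actb. The negative of delta Ct entered a limma fit (version 3.58.1, R 4.3.3) of all 9 arrays without a block, with Benjamini-Hochberg adjustment over 84 panel genes, or 82 for DSS+DPG against UN, where 2 genes had no Ct within the limit in either group. Partner differences were fitted likewise with the partner chain as reference, over 83 genes, or 81 for DSS+DPG against UN. Intervals are 95% intervals of the limma fit. Precision is limited by the single pool per group, of which the 3 arrays are technical repeats. The script was tested on simulated data. All 6 chains, the lists of other integrins, ligands, signalling and TGF beta genes, the marker lists and the 3 nearest profiles per chain are named by rule; from the longer lists only examples are named, and the result of 1 signalling gene is not reported here. Members and lists were chosen with earlier results of these data known. Alternatives were other references, a limit of 35 or of 40 cycles, a filter for genes with all Ct under 35, the t-test of the array software, fitting the compared groups by themselves, a replicate block, leaving out each array, and thresholds of 2-fold and 3.5-fold. The collagens without Col3a1, the other alpha chains without Itgb1 and Fga without each DSS array were added after seeing the data. Python 3.11.15 with matplotlib 3.10.9 drew the figures. The study's other experiments were not analysed here.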

Additional observations from a re-analysis of the deposited data

How the results depend on the processing

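The counts of chains that passed were 4 higher and 1 lower in DSS against UN, and 0 higher and 6 lower in DSS+DPG against DSS and in DSS+DPG against UN. Leaving out each array gave these same counts (range 4 to 4, 1 to 1, 0 to 0 and 6 to 6), and 162 of 162 member differences kept their direction and side of the threshold. Limits of 35 and 40 cycles, the filter, the fit of only the groups compared and the methods' t-test with and without adjustment gave the same counts of chains. With the replicate number as a block the counts were also 4 higher and 1 lower, 0 and 6, and 0 and 6. The sources used here give the numbers only as replicate labels. The correlation of deviations between arrays of the same number ran from -0.186 to 0.338 over the 3 pairs of groups. For UN with DSS it was positive for each number, from 0.073 to 0.338. It was not set against arrays of different numbers, so a shared run was not tested.

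In DSS against UN the count of lower chains was 0 without B2m, 2 without Gapdh, 2 without Hsp90ab1 and 0 with Gapdh alone. It was 0 with Itga3, Mif and Hsp90ab1, 2 in the raw Ct, and 6 relative to the panel median, where 0 were higher. Of the 84 panel genes 18, 28, 28, 16, 16, 29 and 51 passed as lower in that order. With the 5 housekeeping genes 25 did. Relative to the panel median 21 passed as higher. At least 2-fold and at least 3.5-fold left 0 higher and 0 lower. In DSS+DPG against DSS the panel median gave 6 chains higher and 0 lower. Of the 84 panel genes 48 then passed as higher and 25 as lower. With the 5 housekeeping genes, thresholds of 2-fold and 3.5-fold left 3 and 0 chains lower, and 48 and 29 panel genes. Against UN they left 1 and 0 chains lower, and 29 and 14 of 82 panel genes.

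Among the single chains 19 of 288 values turned, all with the reference. In DSS against UN Itgb5 was 0.11 without B2m, 0.25 with Gapdh alone and 0.16 with Itga3, Mif and Hsp90ab1; Itgb3 was -0.10 without Gapdh (adjusted p = 0.0128, limma), -0.20 without Hsp90ab1 and -0.22 in the raw Ct; Itga5 was -0.016 without Hsp90ab1 and -0.033 in the raw Ct. Relative to the panel median Itga4 was -0.50, Itga5 -1.25, Itgav -0.57, Itgb3 -1.43 and Itgb6 -0.99 in DSS against UN, and Itga4 0.45, Itga5 0.34, Itgav 0.25, Itgb3 0.93, Itgb5 1.43 and Itgb6 0.83 in DSS+DPG against DSS. That reference moves the median of all genes by construction. Itga4 in DSS+DPG against UN did not pass with Gapdh alone (-0.05) or the panel median (-0.048). The cause of the unequal housekeeping shifts was not tested. No mouse was measured singly, so the spread between mice is unknown.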
